A study of Rattus norvegicus with 2 samples.

Results

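The genes described here encode collagens, basement membrane proteins and the enzymes that process and cross-link collagen. They were chosen by name, 42 genes in all out of 14217 genes with at least 1 probe set of a single gene symbol on the array. They were divided by role into 15 fibrillar and interstitial collagens, 13 basement membrane genes, 9 collagen processing and cross-linking genes and 5 elastic fibre and matrix glycoprotein genes. RNA was taken from adductor muscle, on the inner thigh, of male rats of the inbred Lewis strain with a body weight of 275 g. The stimulated sample was adductor muscle from a left hindlimb that had received 100 pricks with a steel needle 0.14 mm thick over a square with sides of 10 mm, taken 24 hours later. The control sample was adductor muscle from the right hindlimb, left intact. Each limb was represented by 1 Affymetrix array, the age of the rats and the number of rats are not stated, and the labels do not say whether both samples came from the same animal. No value below therefore has a replicate, and no test was run. Words such as "higher" compare these 2 samples only.

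Muscle fibres lie in a basement membrane, a sheet of laminins and type IV collagen joined by nidogens and the proteoglycan perlecan, and are bundled by an interstitial matrix of fibrillar collagens. Collagen chains are hydroxylated on proline and lysine in the endoplasmic reticulum, folded into triple helices with the help of a dedicated chaperone, secreted, and cross-linked outside the cell by lysyl oxidases. In muscle most interstitial collagen is made by fibroblasts and related stromal cells, whereas basement membrane proteins are also made by muscle and endothelial cells.

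Promoter sequence was at hand for 31 of the 42 genes, from RefSeq on the rat assembly GRCr8, and was read over the 250 bases before each listed start. Col12a1, Col14a1, Col1a1, Col3a1, Col6a2, Eln, Fn1, Lamb2, Lox, Loxl2 and Nid2 had no entry. The stretches shown are those of genes on which the results below turn: the type IV collagen pair, a type I collagen chain, and the processing gene Plod2, which was at least 1.5-fold higher and has an entry. Col4a1 and Col4a2 are listed head to head on opposite strands, and the whole stretch between their listed starts is 76 bases long (chr16:84885521-84885596, written on the plus strand, along which Col4a1 is read). Capitals mark a GC box in the type IV pair, a CCAAT box and a TATA box in Col1a2 (chr4:33518307-33518556, plus strand), and cores of the hypoxia response element in Plod2 (chr8:101964068-101964317, plus strand).
Col4a1-Col4a2: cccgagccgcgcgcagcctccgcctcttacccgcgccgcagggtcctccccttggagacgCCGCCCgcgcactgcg
Col1a2: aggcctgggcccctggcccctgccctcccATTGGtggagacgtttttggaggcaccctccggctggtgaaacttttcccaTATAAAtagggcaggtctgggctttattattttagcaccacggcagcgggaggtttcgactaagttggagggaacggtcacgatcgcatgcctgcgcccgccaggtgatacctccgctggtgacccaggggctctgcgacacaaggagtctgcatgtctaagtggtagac
Plod2: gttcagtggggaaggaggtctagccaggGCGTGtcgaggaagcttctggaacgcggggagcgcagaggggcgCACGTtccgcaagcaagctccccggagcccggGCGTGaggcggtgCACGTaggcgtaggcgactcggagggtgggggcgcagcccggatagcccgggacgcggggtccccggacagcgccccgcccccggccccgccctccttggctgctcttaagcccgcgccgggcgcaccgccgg

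Both strands were searched for each motif. The GC box GGGCGG was present in 20 of the 31 promoters (64.5%), against 58.1% of the promoters of the measured genes and 30.5% of all 33469 promoters in the table. The CCAAT box was present in 8 (25.8%), against 35.2% and 34.0%, and the TATA box TATAAA in 3 (9.68%), Col1a2, Lama4 and Postn, against 6.72% and 12.9%. The hypoxia response cores ACGTG or GCGTG were present in 14 (45.2%), against 55.2% and 36.7%, and the AP-1 site TGANTCA in 1 (3.23%), Col6a1, against 4.46% and 6.34%. These are matches of letters only. In Col1a2 the TATA box begins 170 bases before the listed start.

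Values are signal intensities that the authors made with MAS5, in arbitrary units. Signals under a floor of 19.8, the median of all non-control signals, were set to it, and the difference between limbs is the log2 ratio of the stimulated over the control signal. A gene counts as measured where its signal reached the floor in either limb, as it did for 9956 genes in all, for 41 of the 42 described here, and in both limbs for 40 of these. A gene is represented by its brightest measured probe set. Across the whole table, the log2 ratios of 2 probe sets of the same gene gave an SD of 0.31 for a single probe set (2174 genes), the only error at hand, which leaves out variation between limbs and animals. The median gene had a log2 ratio of 0.019. Muscle fibre genes were bright on both arrays, as the tissue label has it, with signals of 12095 and 16712 for Acta1. The 18 hybridisation spike-in probe sets, of added bacterial and phage RNA, had a median log2 ratio of -0.38 and were all below 0, and scaling to them moved the median gene to 0.39. Signs and folds are therefore those of the deposited scaling, on which the median gene lies near 0. Centring on that gene left 24 of the 41 below 0, in place of 22, and 5 past 1.5-fold upwards, in place of 6, with Lamb1 at 0.58. Of all genes, 6.10% then passed 1.5-fold upwards.

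The 41 measured genes as a set sat close to the median gene, with a median log2 ratio of -0.029, 19 above 0 and 22 below. Those below 0 are 53.7% of the 41, against 47.7% of all measured genes. Scaled to the spike-ins, 8 of the 41 lay below 0. Upwards, 6 genes passed 1.5-fold, the cross-linking enzyme gene Lox, the laminin chains Lama4 and Lamb1, the collagens Col5a3 and Col12a1, and the lysyl hydroxylase Plod2. Downwards, 4 passed it, the collagen-binding glycoprotein Sparc, the collagens Col14a1 and Col5a1, and the lysyl oxidase relative Loxl1. The 6 higher genes are 14.6% of the 41, where 6.59% of all measured genes passed 1.5-fold upwards, and the 4 lower genes are 9.76%, where 6.94% passed it downwards. With spike-in scaling the split was 11 higher and 0 lower among the 41, and 2822 higher and 181 lower among all genes in place of 656 and 691. The 2822 and 181 are 28.3% and 1.81% of the 9986 genes measured at that scaling. Of the 41, 21 (51.2%) lay within the probe set SD of 0, against 62.4% of all measured genes. Lamb1, at a log2 ratio of 0.60, and Col5a1, at -0.60, only just passed 1.5-fold, and P4hb, at 0.50, and Col4a1, at -0.50, fell just short of it. In whole muscle, fewer cells of a type and less RNA per cell cannot be told apart.

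**Figure D1:**
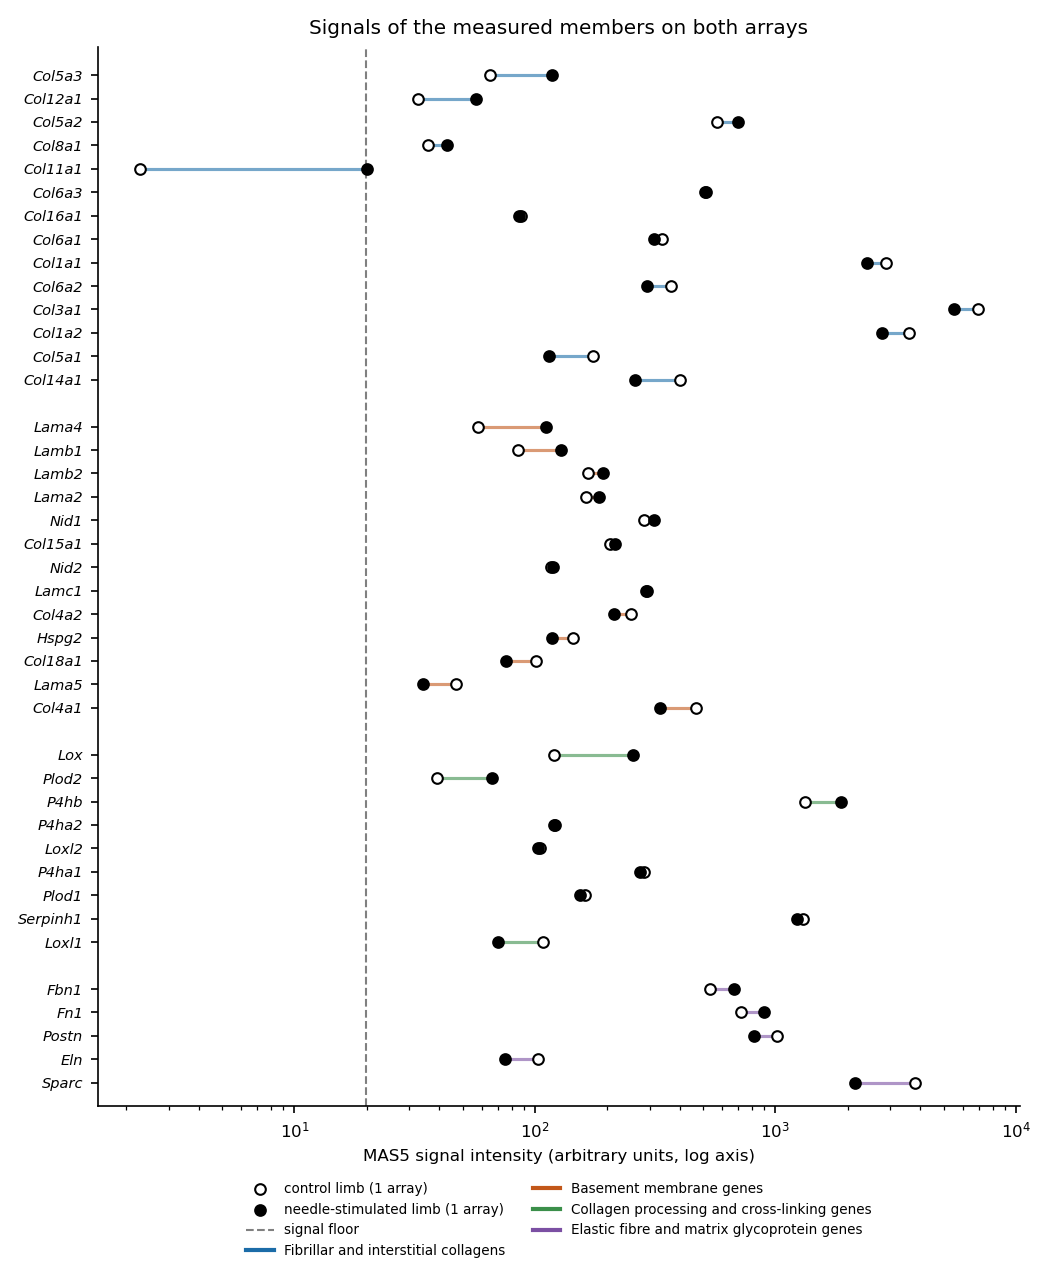
Signal of each of the 41 measured genes on the control array (open circles) and the stimulated array (filled circles), on a log axis in arbitrary units, with lines coloured by role and the floor of 19.8 dashed. Circles of Lox (256 against 120) and Lama4 (111 against 57.8) are set apart with the stimulated one to the right, those of Sparc (2138 against 3788) with it to the left, and Col11a1 reaches the floor on the stimulated array alone.

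The chains of the main fibrils, types I and III, were slightly lower in the stimulated sample. Col1a1 (Entrez gene 29393) had a signal of 2407 in the stimulated limb against 2878 in the control limb, and its second probe set 915 and 1132. Col1a2 (84352), the other chain of type I collagen, had 2773 and 3606, and 1575 and 1952 on its second probe set. Col3a1 (84032), the chain of type III collagen, which is mixed into fibrils of compliant tissues, had 5540 and 6969. All 5 probe sets were thus lower, by 1.20-fold to 1.30-fold for the genes' brightest ones, with log2 ratios of -0.26, -0.38 and -0.33, about 1 probe set SD from 0. Scaled to the spike-ins, these values were 0.13, 0.0050 and 0.053, so their direction turned under that scaling. The 3 genes belong to the 6 described here with a geometric mean signal of 1000 or more, of which 5 lay below 0, with a median of -0.29, while all 553 measured genes of that brightness had a median of 0.034. Muscle fibre markers were lower by a similar amount, with a median of -0.42 over 10 genes, 9 of them below 0. With quantile normalization that median was -0.0075, while Col1a1, Col1a2 and Col3a1 had -0.30, -0.43 and -0.27.

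Type V collagen, which is built into type I fibrils and limits their diameter, went in opposite directions by chain. Col5a3 (60379) had a signal of 118 in the stimulated limb against 65.0 in the control limb, 1.81-fold higher. Col5a2 (85250) had 701 and 573, a log2 ratio of 0.29, with 0.43 on its second probe set. Col5a1 (85490) was 1.51-fold lower, 115 against 174, but its second probe set had 109 and 114, a log2 ratio of -0.07. The chains therefore did not share a direction, and the lower value of Col5a1 rests on 1 of its 2 probe sets. Col11a1, a chain of the cartilage-type fibril collagen XI, reached the floor on the stimulated array alone, at 20.1 against 2.27. It is at least 1.02-fold higher, a bound set by the floor. Its other 2 probe sets were below the floor on both arrays, as was Col27a1, another fibrillar collagen, at 10.4 and 1.48.

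The collagens that sit on the surface of fibrils were also divided. Col12a1 (25683), a fibril-associated collagen found in dense connective tissue such as tendon and fascia, had a signal of 56.9 in the stimulated limb against 32.7 in the control limb, 1.74-fold higher. Its other 2 probe sets lay below the floor on both arrays, so that value is from 1 dim probe set. Col14a1 (314981), its close relative, was 1.54-fold lower, at 262 against 403, and its second probe set gave 62.8 against 98.6, 1.57-fold lower. Both of its probe sets thus passed 1.5-fold. Col16a1, a minor fibril-associated collagen, differed little, at 85.7 against 87.9.

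Type VI collagen, which forms beaded filaments next to the muscle basement membrane and is mutated in congenital muscular dystrophies, stayed within 1.5-fold on the brightest probe set of each chain. Col6a1 had signals of 314 and 336 in the stimulated and control samples, Col6a2 had 292 and 366, and Col6a3 had 515 and 511. The second probe sets differed from these: that of Col6a2 gave 27.2 and 27.6, and that of Col6a3 gave 34.2 and 67.4, a log2 ratio of -0.98 against 0.011 for the brighter one. Col8a1, a short-chain collagen that forms lattices, had 42.9 and 35.9, a log2 ratio of 0.26. Over the 14 measured fibrillar and interstitial collagens, 2 passed 1.5-fold upwards and 2 downwards (14.3% each), and the median log2 ratio was -0.068. Of all measured genes, 6.59% passed it upwards and 6.94% downwards.

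**Figure D2:**
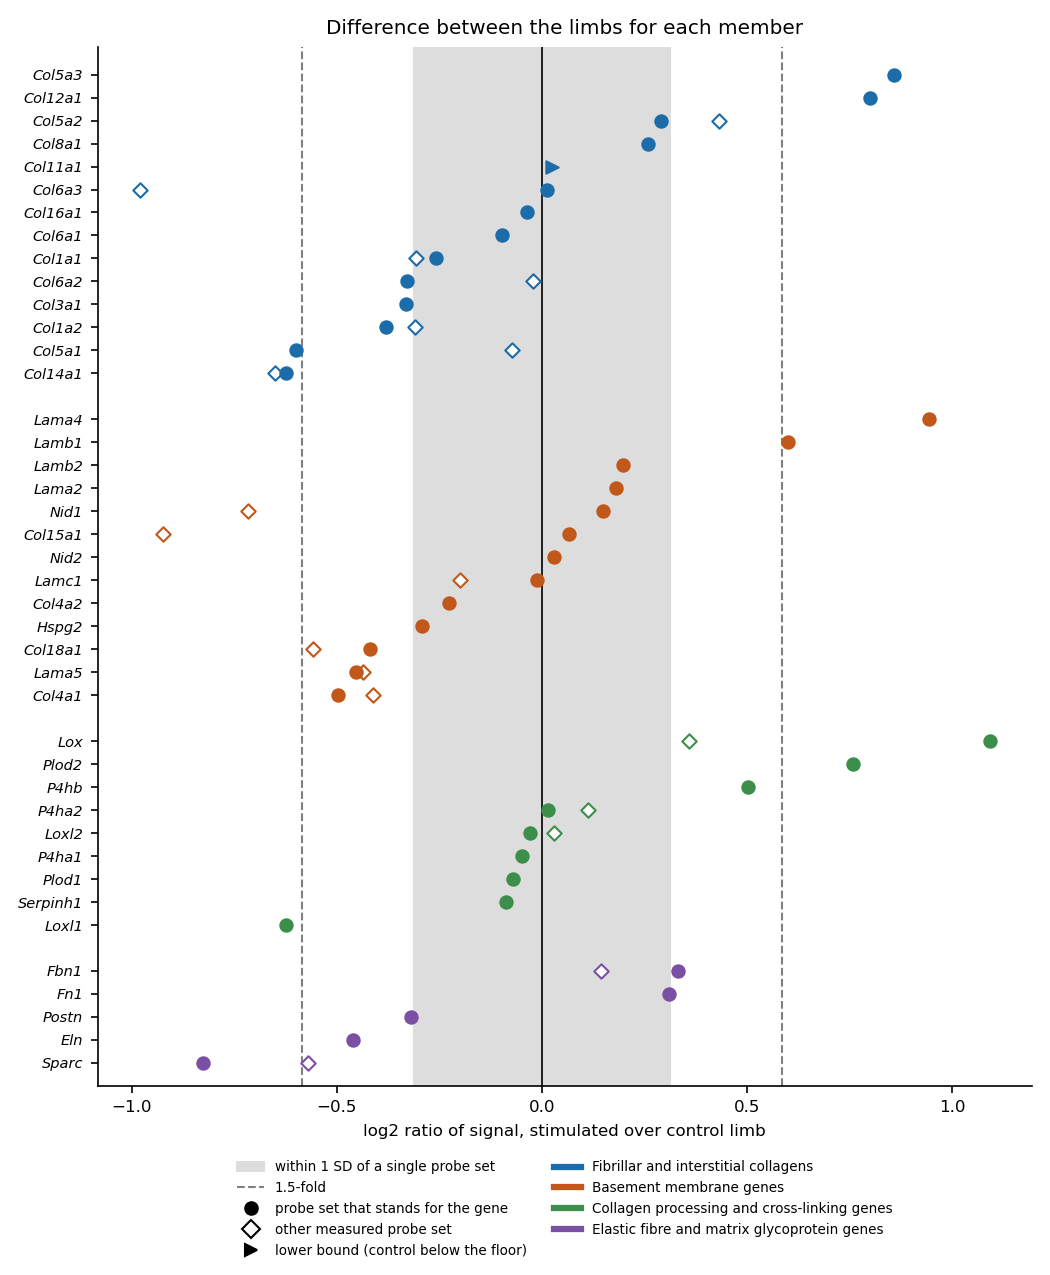
Log2 ratio of signal, stimulated over control, for each measured gene, with filled circles for the probe set that represents the gene, open diamonds for other measured probe sets, a grey band of 1 probe set SD (0.31) around 0 and dashed lines at 1.5-fold. Lox lies farthest to the right at 1.09 and Sparc farthest to the left at -0.83 among the filled symbols, and the open diamonds of Col6a3, Col15a1 and Nid1 lie far to the left of their filled circles.

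In the basement membrane, 2 laminin chains were higher, while the type IV collagen chains Col4a1 and Col4a2 were lower by less than 1.5-fold. Lama4 (309816), the laminin alpha chain typical of vessel walls and of fat and nerve sheaths, had a signal of 111 in the stimulated limb against 57.8 in the control limb, 1.92-fold higher. Its second probe set was below the floor on both arrays. Lamb1 (298941), a beta chain shared by many laminins, had 129 and 85.0, 1.52-fold higher, from its single probe set, and fell short of 1.5-fold with centring (0.58) or with 16 added to the signals (0.52). Lama2 (309368), the alpha chain of the main laminin of muscle fibres, had 185 and 163, a log2 ratio of 0.18. Lamb2, the beta chain enriched at the neuromuscular junction, had 191 and 167, a log2 ratio of 0.20. Lamc1, the gamma chain of nearly all these laminins, was nearly equal at 290 and 293, and Lama5, an alpha chain of mature endothelial and epithelial basement membranes, was 1.37-fold lower at 34.4 against 47.0. Of the 6 laminin chains, 4 lay above 0 and 2 below. Past 1.5-fold upwards were 2 of them (33.3%, against 6.59% of all measured genes), and 0 downwards.

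Of type IV collagen, the network former of the sheet, the chains Col4a1 and Col4a2 were lower on all 3 of their probe sets. Another chain, Col4a5, from a related list given below, had a signal of 68.5 in the stimulated limb against 60.9 in the control limb. Col4a1 (290905) had a signal of 330 in the stimulated limb against 466 in the control limb, 1.41-fold lower, and 208 against 276 on its second probe set. Col4a2 (306628), read from the opposite strand of the 76-base stretch shown above, had 214 and 250, 1.17-fold lower. Neither passed 1.5-fold, and scaled to the spike-ins Col4a2 lay at 0.16 and Col4a1 at -0.11. Col18a1, a basement membrane collagen whose C-terminal fragment is endostatin, had 75.7 against 101, 1.34-fold lower, and 65.5 against 96.3 on its second probe set. Col15a1, its relative, had 214 and 205 on the brighter probe set but 63.7 and 121 on the dimmer one.

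The linkers and the proteoglycan lay within the probe set SD of 0 on their brightest probe sets. Nid1, a nidogen that bridges laminin and type IV collagen, had a signal of 314 in the stimulated limb against 283 in the control limb, though its second probe set gave 36.3 against 59.7, a log2 ratio of -0.72. Nid2 had 119 and 116, and Hspg2 (perlecan) 117 and 144, a log2 ratio of -0.29. Over the 13 basement membrane genes 2 passed 1.5-fold upwards (15.4%) and 0 downwards, where 6.59% and 6.94% of all measured genes did. Counts this small describe single genes, not a group. The median of the 13 was 0.029. Taking each gene's median probe set value in place of the brightest gave -0.23, since Col15a1 and Nid1 then fell below 0, at -0.43 and -0.28.

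Among the processing genes, most enzymes of the endoplasmic reticulum were nearly equal in both samples. P4ha1 and P4ha2, the catalytic subunits of the prolyl hydroxylase that stabilises the triple helix, had signals of 274 and 283, and of 121 and 120, in the stimulated and control samples. P4hb (25506), the disulphide isomerase that is the other subunit and also folds many other proteins, had 1880 against 1329, 1.42-fold higher. Serpinh1, the collagen chaperone, had 1227 against 1304, and Plod1, a lysyl hydroxylase, 154 against 161. Plod2 (300901), the lysyl hydroxylase that acts on the telopeptides, where cross-links form, had 66.3 against 39.3, 1.69-fold higher, from its single probe set. Its promoter, shown above, held 4 matches to the hypoxia response cores. Those of Plod1, P4ha1 and P4ha2, which were nearly equal in both samples, also held matches. The cores were present in 45.2% of the 31 promoters, against 55.2% for the measured genes, and their part in the values was not tested.

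The lysyl oxidases, which start the cross-links between collagen or elastin molecules, went in different directions. Lox (24914) had a signal of 256 in the stimulated limb against 120 in the control limb, 2.13-fold higher and the only one of the 41 genes past 2-fold, where 1.43% of all measured genes passed 2-fold upwards. Its second probe set gave 173 against 135, 1.28-fold higher, so both pointed the same way with unequal size. Loxl1 (315714), which acts mainly on elastin, was 1.54-fold lower, at 70.2 against 108, but passed 1.5-fold under only 4 of 8 alternative settings. Loxl2, which cross-links type IV collagen, had 103 and 105, with 33.5 and 32.8 on its second probe set. Over the 9 processing and cross-linking genes 2 passed 1.5-fold upwards (22.2%) and 1 downwards (11.1%), against 6.59% and 6.94% of all measured genes. The median of the 9 was -0.029 while the mean was 0.17.

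Sparc (24791), a glycoprotein that binds collagen and is made by stromal and endothelial cells, was the lowest of the set. It had a signal of 2138 in the stimulated limb against 3788 in the control limb, 1.77-fold lower, and 1957 against 2904, 1.48-fold lower, on its second probe set. Postn (periostin), a matrix protein of tendon and of healing tissue, had 811 and 1011, a log2 ratio of -0.32. Fn1 (fibronectin), the early scaffold of wound matrix, had 893 against 721, 1.24-fold higher. Fbn1, the fibrillin of microfibrils, had 674 against 536, and 396 against 359 on its second probe set. Eln (elastin), which is laid down on those microfibrils, was 1.37-fold lower, at 74.9 against 103. The second probe set of Eln was below the floor on both arrays, and scaled to the spike-ins its log2 ratio was -0.076. Of the lysyl oxidases, Loxl1 was also lower, but Lox was 2.13-fold higher, so they did not share a direction with elastin. Fibrillin and fibronectin were higher by about 1 probe set SD. Of the 5 genes, 3 lay below 0, with a median of -0.32 and a mean of -0.19.

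**Figure D3:**
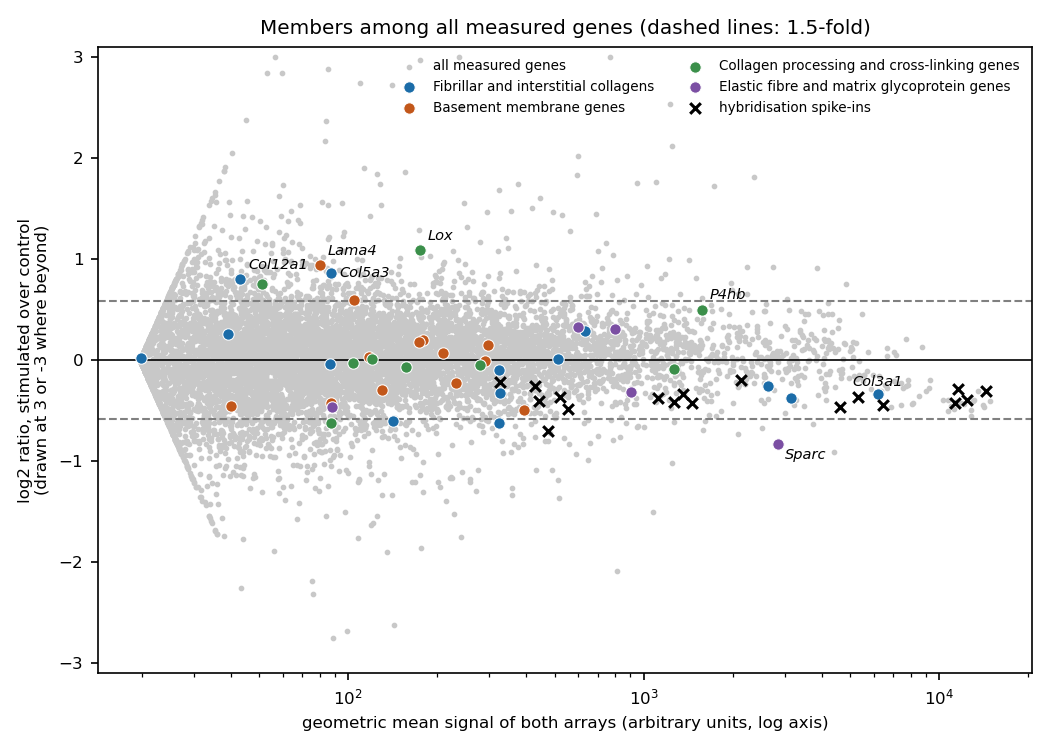
Log2 ratio of stimulated over control against the geometric mean signal of both arrays (log axis, arbitrary units) for all 9956 measured genes (grey), the 41 genes by role (coloured) and the 18 spike-in probe sets (crosses). On the deposited scaling, the type I and III collagens (above 0 with spike-in scaling) and Sparc lie below 0 at the bright end, at the height of the spike-ins or lower, while Lox, Lama4, Col5a3 and Col12a1 lie above the upper 1.5-fold line at lower signals.

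Agreement between probe sets could be examined for 18 of the 41 genes, each with 2 measured probe sets. Both log2 ratios had the same sign in 14 of them, and in 13 they differed by less than 0.44, the SD of such a difference over the whole table. The other 5 were Col15a1, Col6a3, Nid1, Lox and Col5a1. Across the 2174 genes with 2 probe sets at or above the floor on both arrays, 60.5% had the same sign. That rule is stricter than the one for the 18, where the second probe set of Lama5 reached the floor on the control array alone. The dimmer probe set was the lower in 9 of the 18 pairs, and in 60.1% of the 2174.

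Other genes of collagen and basement membrane biology, from fixed lists, were also mostly within 1.5-fold. So were 8609 of all 9956 measured genes, and 31 of the 41 genes described above. Of 21 other collagen chains 4 were measured and none passed 1.5-fold, with Col7a1, the anchoring fibril collagen, at 232 against 180, Col4a5 at 68.5 against 60.9, Col22a1 at least 1.30-fold higher and Col23a1, at 21.3 in the control limb, below the floor after stimulation. Of 27 other processing and secretion genes 15 were measured. Upwards 0 passed 1.5-fold, and downwards 1 did (6.67%, against 6.94% of all measured genes). This was Bmp1, the procollagen C-proteinase, 2.69-fold lower at 20.2 against 54.4, close to the floor, while its dimmer probe set had a log2 ratio of -0.22. Next in size were the prolyl hydroxylase P3h1 at -0.48, the coat protein gene Sec31a at -0.43 and the ion channel gene Tmem38b at 0.47. All 6 measured of 15 other laminin and basement membrane genes lay below 0, as did 47.7% of all measured genes. Past 1.5-fold downwards was 1 of the 6 (16.7%, against 6.94% of all measured genes), the netrin Ntn1, 1.78-fold lower at 19.8 against 35.3. Its stimulated signal lay at the floor. Its second probe set, below the floor after stimulation, had a log2 ratio of -0.11 or lower. Smoc1 was at least 1.43-fold lower, and the log2 ratios of Agrn (agrin) and Lamc3 were -0.36 and -0.17. Of 15 elastic fibre and microfibril genes 13 were measured. Of these, 3 passed 1.5-fold downwards (23.1%, against 6.94% of all measured genes) and 1 upwards (7.69%, against 6.59%). Lower were Ltbp1, which tethers latent TGF-beta to microfibrils (2.05-fold, 53.6 against 110), the fibulin Fbln5, which assembles elastic fibres (1.64-fold, 31.7 against 52.0), and Efemp2, another fibulin, which brings lysyl oxidase to elastin (log2 ratio -0.59, 72.9 against 110, with -0.64 on its second probe set). Emilin1, of the elastic fibre surface, was at least 1.82-fold higher. The median of this list was -0.28 and that of the other laminin and basement membrane genes -0.27, and both turned above 0 (0.10 and 0.12) when scaled to the spike-ins.

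Markers of cells that can make these genes differed between the samples as well, and their part in the values above was not tested. Of all measured genes, 47.7% lay below 0. Fibroblast and fibro-adipogenic markers had a summed signal of 9561 in the stimulated limb against 11206 in the control limb, with 8 of 11 measured genes below 0 and a median of -0.25, and Pdgfra at 0.29. Endothelial markers summed to 1394 and 2344, with 12 of 13 below 0 and a median of -0.65, and smooth muscle and pericyte markers to 1154 and 1831, with 7 of 9 below 0 and a median of -0.40. Tenocyte markers summed to 1495 and 339, with all 6 measured genes above 0, a median of 2.15 and Tnmd at 283 against 42.3, and monocyte and macrophage markers to 4992 and 2261, with 12 of 12 above 0 and a median of 0.79. Scaled to the spike-ins, the fibroblast median turned to 0.13, and the endothelial and smooth muscle medians were -0.27 and -0.088. Schwann cell markers summed to 829 and 847, with 1 of 3 above 0, 2 below and a median of -0.38. Of the defining markers, Tcf21 and Sox10 lay below the floor on both arrays, and Cd34, Ly6a, Cdh5, Mkx and Kera were not analysed here.

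**Figure D4:**
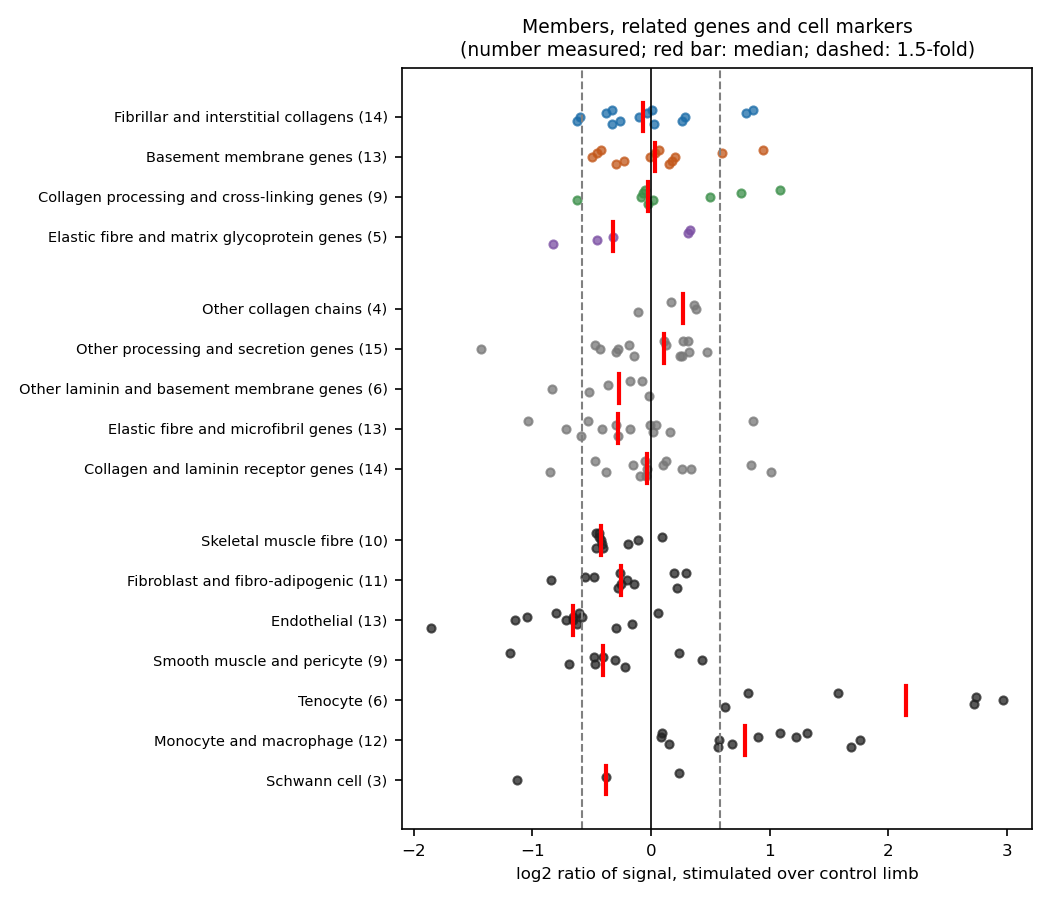
Log2 ratio of each measured gene, stimulated over control, for the described genes by role (coloured), related genes (grey) and cell markers (black), with the number of measured genes in brackets, a red bar at the median and dashed lines at 1.5-fold. Medians of the fibrillar, basement membrane and processing groups lie between -0.068 and 0.029, that of endothelial markers at -0.65 and that of tenocyte markers at 2.15, a lower bound.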

How the data were processed

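The deposited table holds 1 linear signal intensity per probe set and array, which the authors computed by MAS5 according to the submitters' processing notes (version and target of the scaling: not given in the sources used here). Of 31099 probe sets, 57 controls were set aside. The platform annotation gave 20826 of the rest 1 symbol, and those with several (436) or none listed (9780) were left out. Entrez identifiers matched 20764 probe sets to RefSeq (GRCr8), which changed 0 symbols. The floor (the 50th percentile, 19.8), the log2 ratio, the brightest measured probe set and the folds of 1.5 and 2 were used as described above, with Python 3.11.15, numpy 2.4.6 and pandas 2.3.3, and the counting was tested on simulated data. There is no test, since each group has 1 array, and the number of arrays limits the precision. The genes and lists were chosen with earlier results of these data known. All measured genes of the 42 are named, with up to 4 of each related list by largest absolute log2 ratio; Tnmd, Pdgfra and Acta1 were chosen after their values were seen. Alternatives were 2 other floors, 16 added to signals without a floor, quantile and spike-in scaling, centring, and the median over probe sets. Another left out suffixed probe sets, those with names ending in _s_at, _x_at or _a_at.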

Additional observations from a re-analysis of the deposited data

How the results depend on the processing

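No paired analysis was possible because each limb has 1 array and the labels give no pairing; leaving out an array was not possible for the same reason. Over 8 alternatives, 274 of 322 values of single genes moved by less than the probe set SD of 0.31, and 48 moved by more. Of the 41 genes, 18 were measured and kept their sign under all 8. Of the 10 genes at least 1.5-fold different, 0 changed sign. For most alternatives this was fixed by their choice. Centring and spike-in scaling shift all genes alike by less than 1.5-fold, and another floor or 16 added cannot turn the sign of a probe set. Of the 10, Col5a3 alone passed 1.5-fold under all 8; Col14a1 and Sparc passed it under all but spike-in scaling, where they were at -0.24 and -0.44, and Lama4 under all but the higher floor, at 0.54. Loxl1 passed it under 4, missing it at the higher floor (-0.50), with 16 added (-0.53), with quantile normalization (-0.58) and with spike-in scaling (-0.24). Lamb1 missed it with centring (0.58) and with 16 added (0.52), and Col12a1 and Plod2 missed it with 16 added (0.58 each) and were not measured at the higher floor. Col5a1 also missed it with 16 added (-0.54) and with spike-in scaling (-0.21). Lox had a log2 ratio of 0.36 without suffixed probe sets, and Col5a1 -0.34 with the median over probe sets. Scaled to the spike-ins, the median was 0.35 for all 41 genes, and was 0.25 for the fibrillar and interstitial collagens, 0.41 for the basement membrane genes and 0.36 for the processing genes, with 11 genes at least 1.5-fold higher and 0 lower, beside a median of 0.39 for all genes. At that scaling 28.3% of all genes were at least 1.5-fold higher and 1.81% lower. With the median over probe sets, it was -0.088 for all 41 genes and -0.23 for the basement membrane genes. The higher floor, at the 75th percentile, kept 36 of the genes and put the fibrillar and interstitial median at -0.26. It left 3 genes at least 1.5-fold higher, where 4.66% of all genes were. The floor at the 25th percentile gave 8 genes at least 1.5-fold higher, with Col11a1 (1.80) and Col27a1 (0.85) among them, where 10.4% of all genes were. With 16 added and no floor, 5 genes were at least 1.5-fold higher, with Col11a1 (0.98) and Col27a1 (0.60) among them, and 2 were lower. Of all genes at that setting, 4.42% were higher and 4.66% lower. Over all genes, 656 higher and 691 lower became 271 and 199 at the higher floor, 1328 and 1622 at the 25th percentile, and 2822 and 181 with spike-in scaling. Signals near the floor, such as those of Col11a1, Col12a1 and Plod2, limit what can be read from them.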

Other observations

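Receptors for collagen and laminin, a list fixed beside the matrix genes, were measured for 14 of 21 genes, with a median log2 ratio of -0.038. Of the 14, 2 passed 1.5-fold upwards (14.3%) and 1 downwards (7.14%), against 6.59% and 6.94% of all measured genes. Itga7, the integrin alpha chain through which muscle fibres hold laminin, had a signal of 212 in the stimulated limb against 105 in the control limb, 2.02-fold higher, but its second probe set gave 110 against 108. Itgav, the alpha chain of fibronectin and vitronectin receptors, was 1.79-fold higher, at 60.4 against 33.7. Itgb4, the beta chain of a laminin receptor of epithelia and nerve sheaths, was 1.81-fold lower, at 31.4 against 56.8, and Itga11, a fibroblast receptor for fibrillar collagen, had a log2 ratio of -0.47.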
